A study of Mus musculus with 6 samples.

Results

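The small proline-rich protein (Sprr) genes encode short proteins of the cornified envelope, the cross-linked layer under the membrane of squamous epithelial cells, and they were followed here in mouse colon tissue that carried tumors. The members were 10 genes, namely Sprr1a, Sprr1b, Sprr2b, Sprr2d, Sprr2e, Sprr2f, Sprr2g, Sprr2h, Sprr3 and Sprr4, and they were selected by symbol, as 12 of the 56605 gene probes of the array. The family itself was chosen with differences between these arrays in view, so its differences between groups are described without a test. Another 5 Sprr genes with 7 probes (Sprr2a1, Sprr2a2, Sprr2i, Sprr2j-ps and Sprr2k) were taken for comparison. All samples came from male C57BL/6 mice bought at 6 to 8 weeks of age. Their tumors followed an injection of a carcinogen, AOM at 10 μg/g. The drinking water later held 2% DSS for 5 days to injure and inflame the colon lining. The 3 RG@M-γ-CD mice received the kinase inhibitor regorafenib (RG) by mouth in nanoparticles of mannose-modified γ-cyclodextrin, at 30 μg/g of the complex or 10 μg/g RG, and the 3 PBS mice received the saline vehicle. Treatment ran for 21 days and was followed by 14 days of observation, and tissue of each mouse was hybridized to 1 one-color array.

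In stratified epithelia, Sprr proteins are joined by transglutaminases to loricrin, involucrin and other envelope precursors, and their genes lie side by side in the epidermal differentiation complex. The intestine has a simple epithelium without an envelope, yet Sprr genes, Sprr2a among them, are known to be switched on there by bacterial colonization, inflammation and injury. Sprr1a is also known as a gene of injured nerve and stressed heart muscle.

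Levels are log2 intensities from which the 75th percentile of that array was subtracted, so 1 unit is a doubling, and levels of different probes cannot be set against each other. A probe counted as measured on an array where the scanner software marked it well above background. Between 49.6% and 55.2% of gene probes were measured on each array, no gene spot was saturated, and all 20 colon epithelium markers examined were measured on all 6 arrays. The 6 arrays shared 1 slide and 1 scan, with the 3 RG@M-γ-CD arrays and PBS replicate 1 in row 1 and the other PBS arrays in row 2. A difference fitted with slide row as a block, or within row 1, therefore compares the RG@M-γ-CD arrays with PBS replicate 1 alone. The sample labels name arrays 5, 6 and 7 as RG@M-γ-CD replicates 1, 2 and 3, and arrays 8, 10 and 11 as PBS replicates 1, 2 and 3. The clustered heat map of the study instead sets arrays 6, 7 and 8 against arrays 5, 10 and 11. That grouping was drawn from these same arrays, so separation in it is partly built in. Counts of genes that separate or pass a threshold there are descriptions and not tests. Differences of the members and the medians of the gene lists are therefore given by the labels and for that grouping, where neither side is named as treated. A difference with no grouping named is by the labels.

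The 12 member probes lie within 182806 bases of chromosome 3 (mm9, the build of the array design). The Sprr2 members are on the plus strand, and Sprr1b, Sprr3, Sprr1a and Sprr4 follow on the minus strand. The Sprr2 coding regions repeat short proline-rich units, and some of the probes carry this likeness. The probes of Sprr2b (chr3:92121449-92121508), Sprr2k (chr3:92237308-92237367) and Sprr2j-ps (chr3:92222836-92222895), all on the plus strand of mm9, are shown because they share runs of bases. Capitals mark the run of 28 bases that the Sprr2b and Sprr2k probes share and, in Sprr2j-ps, the 14 bases of that run that it holds.
Sprr2b probe: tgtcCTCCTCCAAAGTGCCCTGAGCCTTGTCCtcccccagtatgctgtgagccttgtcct
Sprr2k probe: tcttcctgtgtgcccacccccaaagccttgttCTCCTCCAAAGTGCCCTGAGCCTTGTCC
Sprr2j-ps probe: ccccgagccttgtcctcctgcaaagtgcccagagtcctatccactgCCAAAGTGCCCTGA
Signal of the Sprr2b, Sprr2k and Sprr2j-ps probes may include RNA of the other genes, and their shares cannot be told apart. One of the 3 probes named Sprr2a2 (A_55_P2048853) matched the window around the Sprr2b start in 59 of its 60 bases, so its gene is uncertain too.

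The windows upstream of the members were read from RefSeq (GRCm38.p6), which held 9 of the 10 members and not Sprr2g. The 250 bases before the start are printed for Sprr2h, Sprr2b and Sprr1a, the members measured on all 6 arrays, and for Sprr2d, whose 2 measured arrays were the highest for Sprr2h. Capitals mark TATAAA, the AP-1 motif TGANTCA and the octamer ATTTGCAT. The coordinates are chr3:92385435-92385684 for Sprr2h, chr3:92338890-92339139 for Sprr2d and chr3:92316455-92316704 for Sprr2b on the plus strand, and chr3:92485882-92486131 for Sprr1a on the minus strand.
Sprr2h upstream: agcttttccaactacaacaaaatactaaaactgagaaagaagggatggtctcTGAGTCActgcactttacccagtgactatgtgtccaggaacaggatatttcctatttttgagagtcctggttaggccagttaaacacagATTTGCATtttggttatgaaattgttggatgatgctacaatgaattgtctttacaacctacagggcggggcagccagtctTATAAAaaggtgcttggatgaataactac
Sprr2d upstream: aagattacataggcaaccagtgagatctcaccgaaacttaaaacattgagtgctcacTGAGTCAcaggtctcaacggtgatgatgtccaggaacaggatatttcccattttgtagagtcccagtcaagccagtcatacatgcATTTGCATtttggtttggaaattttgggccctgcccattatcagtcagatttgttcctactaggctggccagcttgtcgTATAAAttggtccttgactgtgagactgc
Sprr2b upstream: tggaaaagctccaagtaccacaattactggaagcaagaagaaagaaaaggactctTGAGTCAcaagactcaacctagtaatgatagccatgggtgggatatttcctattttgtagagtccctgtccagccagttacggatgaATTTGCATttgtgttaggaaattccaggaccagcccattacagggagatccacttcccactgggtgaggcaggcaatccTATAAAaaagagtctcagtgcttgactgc
Sprr1a upstream: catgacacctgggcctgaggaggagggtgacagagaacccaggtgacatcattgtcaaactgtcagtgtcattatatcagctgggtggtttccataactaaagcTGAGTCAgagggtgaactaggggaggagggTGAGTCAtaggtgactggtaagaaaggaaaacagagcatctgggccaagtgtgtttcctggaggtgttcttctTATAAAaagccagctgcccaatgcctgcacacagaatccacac
Motifs were searched on both strands of the 300 bases from 250 before to 50 after the start. TGANTCA was present in 7 of 9 member windows, all but Sprr3 and Sprr4, and in 7.81% of the 32851 RefSeq windows. TATAAA was present in 8 of 9, all but Sprr4, and in 13.6% of all windows. ATTTGCAT, added after the windows had been read, was present in 5 of 9, the 5 Sprr2 members, and in 1.74% of all. In these Sprr2 windows TATAAA began 29 bases before the start and ATTTGCAT between 108 and 112 bases before it. AGGAA, the core of the ETS motif, was present in 9 of 9 against 66.7%. The spaced STAT motifs, TTC and GAA with 4 or with 3 bases between them, were in 0 of 9 member windows, against 6.95% and 8.30% of all. Over all 14 Sprr windows, the 9 member windows included, TGANTCA was in 9, TATAAA in 10 and ATTTGCAT in 7. The windows of Sprr2i and Sprr2k held all of these, so they are not particular to the members. The spaced STAT motifs were in 3 and 2 of the 14 Sprr windows. Matches describe these letters only and do not show that a factor bound.

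Sprr2h had the largest difference among the members measured on all 6 arrays. On its probe A_66_P138462 (chr3:92191160-92191219, mm9, plus strand) the RG@M-γ-CD arrays read -2.15, -2.05 and -1.95 for replicates 1, 2 and 3. The PBS arrays read 0.52, -0.60 and 1.08. All 3 RG@M-γ-CD arrays lay within a narrow band below every PBS array, and the PBS arrays spread widely. The mean was -2.05 ± 0.10 (SD, n = 3) with RG@M-γ-CD and 0.33 ± 0.86 (SD, n = 3) with PBS, a difference of -2.38 (SE 0.41), or 5.21-fold lower with RG@M-γ-CD. It ranked 7th among the lowest differences of 19090 genes. In these bulk samples, fewer cells that express the gene and less RNA per cell cannot be told apart.

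A second Sprr2h probe, A_55_P2743355 (chr3:92190899-92190958, mm9, plus strand), gave the same order of groups. It read -3.98, -3.77 and -4.23 on the RG@M-γ-CD arrays, the last of which was not well above background, and -1.96, -2.74 and -1.23 on the PBS arrays. The groups did not overlap, and the difference was -2.01, or 4.04-fold. Normexp background correction reduced this difference to -1.0. The lowest signals that counted as measured on the RG@M-γ-CD arrays were -4.62, -4.16 and -4.24, so the size of the difference depends on that floor. This probe was tested only because all PBS arrays measured it, so it is not read as support for the first probe. PBS replicate 3 was the highest array for both probes and PBS replicate 2 the lowest of its group. In the heat map grouping the separation was lost. The mean of probe A_66_P138462 was -1.16 over arrays 6, 7 and 8 and -0.56 over arrays 5, 10 and 11, a difference of -0.60 with overlapping groups, and the second probe differed by -0.67.

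Sprr1a, the envelope protein also induced by injury outside the skin, was measured on all 6 arrays (chr3:92287955-92288014, mm9, minus strand). The RG@M-γ-CD arrays read -0.12, -1.11 and 0.86, and the PBS arrays 0.63, 0.99 and 1.75. RG@M-γ-CD replicate 3 lay above PBS replicate 1, so the groups overlapped. The difference was -1.25 (SE 0.53), from -0.12 ± 0.98 to 1.12 ± 0.57 (SD, n = 3 each), or 2.37-fold lower with RG@M-γ-CD. When the lowest array, RG@M-γ-CD replicate 2, was left out, the difference was -0.75. Within slide row 1, where PBS replicate 1 is the only PBS array, it was also -0.75. The heat map grouping gave -0.75 as well.

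Sprr2b, a proline-rich envelope protein of the Sprr2 group, was also measured on all arrays. Its levels were 2.34, 3.94 and 4.25 with RG@M-γ-CD and 3.92, 3.77 and 4.49 with PBS. RG@M-γ-CD replicate 1 stood alone at the low end, and the other arrays of both groups were mixed. The difference by the labels was -0.55 (SE 0.52), with means of 3.51 ± 1.03 and 4.06 ± 0.38 (SD, n = 3 each). It rested on that 1 array, since leaving it out gave 0.036. In the heat map grouping the sign turned, to 0.50.

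**Figure D1:**
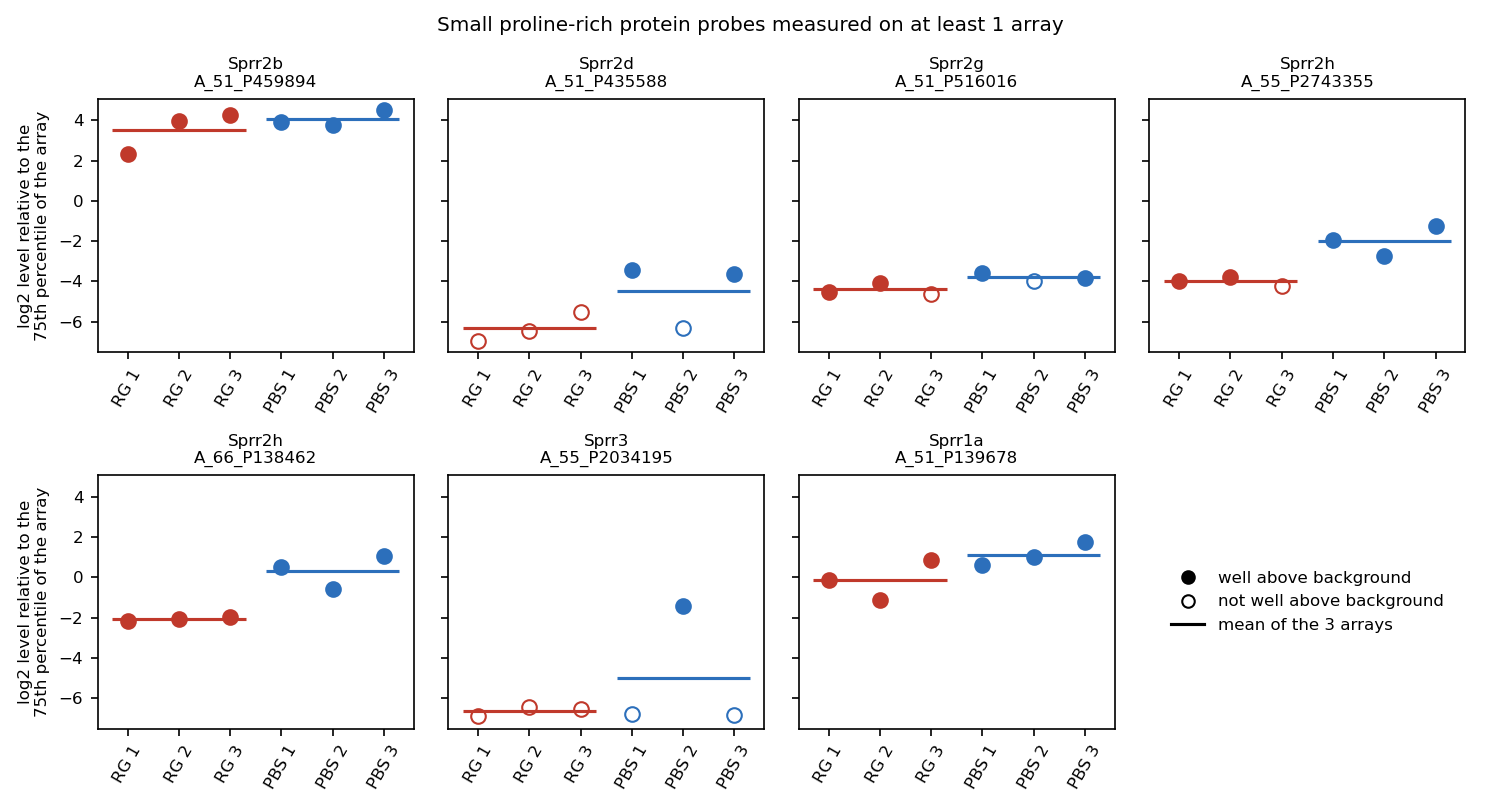
Level of each member probe that was measured on at least 1 array (y axis, log2 relative to the 75th percentile of the array) on the 6 arrays (x axis, RG for RG@M-γ-CD). Filled points were well above background, open points were not, and lines are means of 3 arrays. Sprr2h is low on all 3 RG@M-γ-CD arrays with both probes, Sprr2b is low on RG@M-γ-CD replicate 1, and Sprr3 is measured on PBS replicate 2 alone.

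Sprr2d, Sprr2g and Sprr3 were measured on some arrays. Sprr2d was measured on PBS replicates 1 and 3, at -3.45 and -3.62, and was not well above background on PBS replicate 2 or on any RG@M-γ-CD array. These 2 arrays were also the highest for Sprr2h. No fold is given for Sprr2d, because the mean over the 3 PBS arrays did not exceed the lowest measurable signal.

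Sprr2g was measured on 2 arrays of each group. It read -4.52 and -4.08 on RG@M-γ-CD replicates 1 and 2, and -3.58 and -3.83 on PBS replicates 1 and 3. It was not well above background on RG@M-γ-CD replicate 3 and PBS replicate 2. The lowest signals that counted as measured lay between -4.62 and -3.98 over the 6 arrays, close to these values. No difference is given for Sprr2g, since it would rest in part on arrays where it was not measured.

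Sprr3, a protein of the esophageal and other internal squamous linings, was measured on 1 array. PBS replicate 2 read -1.40, and the other 5 arrays were not well above background. The same array was highest for exocrine pancreas markers, whose list mean over 5 tested genes was 1.96 there, between -0.46 and -0.35 on the other PBS arrays and between -1.29 and -1.07 on the RG@M-γ-CD arrays. All 12 pancreas markers were measured on at least 1 array and 2 of them on all 6. Prss2 was measured on the 3 PBS arrays, at -3.05, -0.28 and -4.34, and on no RG@M-γ-CD array. Ctrb1 was measured on 2 RG@M-γ-CD arrays and all PBS arrays, and Cela1 differed by 0.17. Prss2, Ctrb1 and Cel were tested only because the PBS arrays measured them, so nothing is read from their test. The list mean includes them, so nothing is read from its gap between the groups either. The list's median difference was -1.30 by the labels and -1.14 in the heat map grouping. By the labels it was -0.13 over genes measured on all 6 arrays. With slide row as a block, which leaves PBS replicate 1 as the only PBS array in the contrast, it was -0.09. Of 25 squamous markers, 16 were measured on all 6 arrays, among them Krt13 and Krt14, and 2 on none, Krt1 and Dsg1a. The mean of the squamous markers was 0.70 on PBS replicate 2 and 0.62 and 0.73 on the other PBS arrays. The part of either cell type in the Sprr3 value was not tested.

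Sprr1b with both its probes, Sprr2e, Sprr2f and Sprr4 were not well above background on any of the 6 arrays. Sprr1b is the close relative of Sprr1a, and Sprr4 is a skin member of the family. Thus 6 of the 10 members were measured on at least 1 array, 3 on all 6, and 4 on none.

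Of the 3 members that could be tested in the fit across all genes, all had a lower mean with RG@M-γ-CD, where 52.8% of the 19090 genes tested did, and their median difference was -1.25, against -0.01 over all genes. Only Sprr2h had groups that did not overlap, which held in this direction for 2.19% of all genes, and Sprr1a and Sprr2h were at least 2-fold lower, as 1.13% of all genes were. Nothing is read from these shares, since the contrast was in view when the members were chosen. By limma, 0% of the genes and no member met the adjusted threshold of 0.05, with 419 genes (2.19%) at an unadjusted p below 0.05 and a smallest adjusted p of 0.818. The methods' t-test also gave 0 genes after Benjamini-Hochberg adjustment, with 381 at an unadjusted p below 0.05. In the heat map grouping, Sprr2h and Sprr1a were lower and Sprr2b higher in arrays 6, 7 and 8, as 63.8% of all genes were lower, and the median over the 3 members was -0.60 against -0.12 over all genes. The groups overlapped there in all 3 members, while they did not overlap for 25.5% of all genes. In that grouping 0.0259% of the genes, none of them a member, met the adjusted threshold in limma. Because the grouping was drawn from these same arrays, its counts can be raised by that choice. They cannot be weighed against the counts by the labels.

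**Figure D2:**
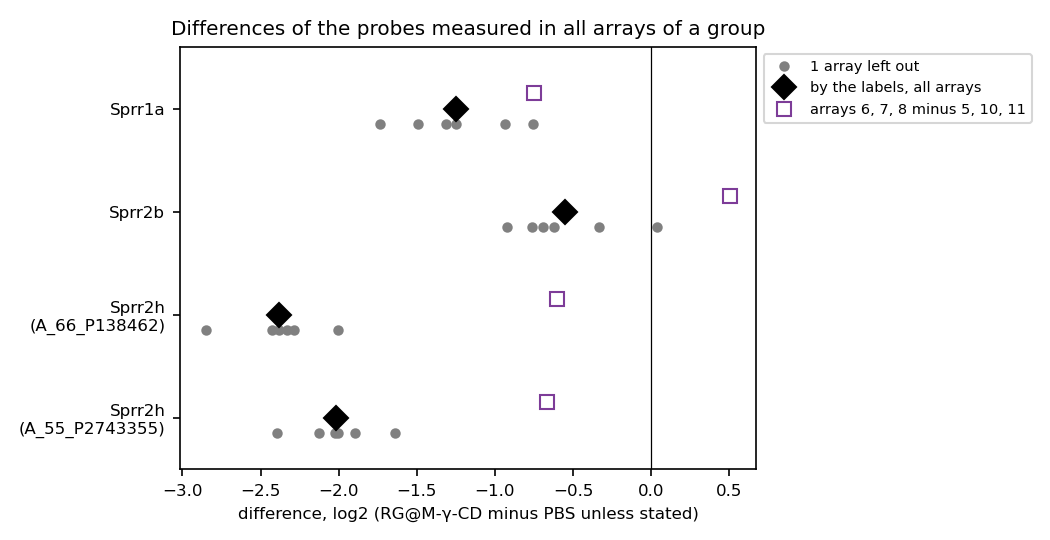
Difference in log2 (x axis) of the 4 member probes tested (y axis). Black diamonds are the labelled groups (RG@M-γ-CD minus PBS), grey points the same with 1 array left out, and open squares arrays 6, 7 and 8 minus 5, 10 and 11. Both Sprr2h probes stay at or below -1.64 with any 1 array left out, which could not change their sign. They move to -0.60 and -0.67 in the heat map grouping, and Sprr2b crosses 0. Probe A_55_P2743355 was tested only because all PBS arrays measured it.

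Most measured comparison probes of the cluster shared their lowest array with Sprr2b. Sprr2k read 1.44, 2.72 and 3.12 with RG@M-γ-CD and 2.70, 2.74 and 3.35 with PBS. Sprr2j-ps read -1.18, 0.11 and 0.45 with RG@M-γ-CD and 0.06, 0.51 and 0.88 with PBS. Both were lowest on RG@M-γ-CD replicate 1, as was Sprr2b, and both overlapped between groups, with differences of -0.50 and -0.69. The median over the tested comparison genes, -0.50, moved to -0.01 when that array was left out. The Sprr2a2 probes A_55_P2048855 and A_55_P2048853 differed by -0.36 and -0.70 and were also lowest on that array. The third Sprr2a2 probe, A_55_P1974976, differed by -0.03 and was lowest on PBS replicate 1, so the probes of this gene disagree. Sprr2a1 and Sprr2i were not well above background on any array. Across the heat map groups, Sprr2k and Sprr2j-ps differed by 0.34 and 0.14.

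**Figure D3:**
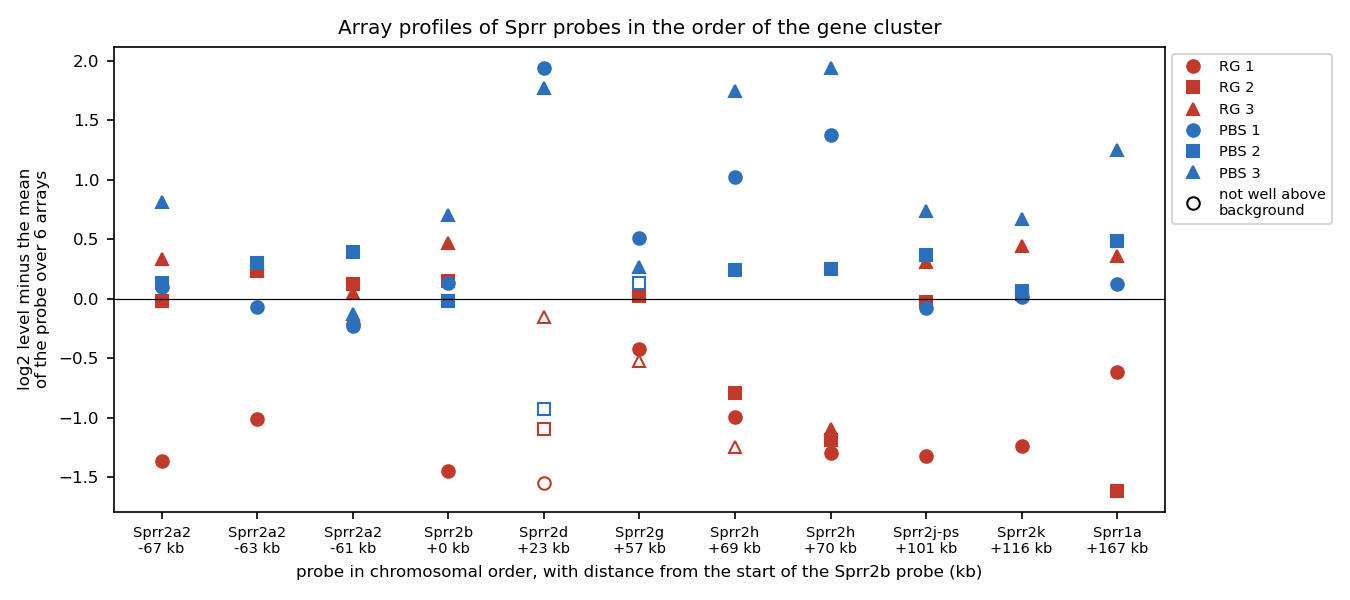
Level of each Sprr probe measured on at least 2 arrays, minus its mean over the 6 arrays (y axis, log2), in chromosomal order (x axis, with the distance from the Sprr2b probe in kb). Red is RG@M-γ-CD, blue is PBS, and open symbols were not well above background. RG@M-γ-CD replicate 1 (red circles) is far below the rest for Sprr2b, Sprr2k and Sprr2j-ps, whereas all 3 RG@M-γ-CD arrays are low for Sprr2h.

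Array profiles were set against each other for 9 Sprr probes measured on at least 5 arrays, in 36 pairs that share the same 6 arrays, as a description. The 2 Sprr2h probes had r = 0.987 (rho = 0.829, n = 6), and r = 0.936 over the 4 arrays left without PBS replicates 1 and 3. Sprr2b and Sprr2k had r = 0.993 (rho = 0.829, n = 6), and r = 0.898 without RG@M-γ-CD replicate 1 and PBS replicate 3. Sprr2b and Sprr2j-ps had r = 0.952 (rho = 0.657, n = 6), which fell to 0.128 without the same 2 arrays and so rested on them. Sprr2h and Sprr2b had r = 0.51 (rho = 0.543, n = 6), and -0.526 without those 2 arrays. Sprr2h and Sprr1a had r = 0.72 (rho = 0.771, n = 6), and 0.61 without PBS replicates 1 and 3.

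The genes most like the mean of the 3 tested members were Slc39a14, a zinc transporter (r = 0.970, n = 6 arrays), Rtel1, Atp10b, Zfp719, the transcript ENSMUST00000103324, Rnf19b, the interferon-induced gene Ifit1, Tubgcp6, Npepps and an unnamed transcript on chromosome 13, down to r = 0.949. The per-gene ranking was added after the data had been seen. By it Sprr2h was most like Trib3, a stress-induced pseudokinase (r = 0.995), Cdk3 (r = 0.994), Trim35 and Osmr, the oncostatin M receptor (both r = 0.987). Sprr2b was most like Sprr2k, and Sprr1a was most like Tra2a and Glipr1, with the collagenase Mmp13 as the 10th (r = 0.971). With 6 arrays, 17 genes reached r above 0.95 with Sprr2h, 12 with Sprr2b and 29 with Sprr1a.

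Most other envelope genes were not measured. For the counts that follow, 52.8% of all genes had a lower mean with RG@M-γ-CD, and 2.19% had groups that did not overlap in that direction. Of 35 cornified envelope precursors on the array, 28 were measured on none, among them involucrin (Ivl), and the 5 tested had a median difference of -0.04, with 3 lower and 2 higher, and of -0.08 in the heat map grouping. Loricrin (Lor) and Lce1j differed by 0.24 and 0.05, and trichohyalin (Tchh) and Lelp1 by -0.45 and -0.07. Of 16 tested genes for envelope cross-linking and scaffolds, 7 were lower and 9 higher, with a median of 0.05 and of -0.23 in the heat map grouping. Over those measured on all 6 arrays the median by the labels was also 0.05. The transglutaminase Tgm1, which joins Sprr proteins to the envelope, read -2.51 and -3.10 on RG@M-γ-CD replicates 1 and 3 and -2.19, -2.70 and -2.29 on the PBS arrays, and was not well above background on RG@M-γ-CD replicate 2. Tgm2 differed by -0.37 and Evpl by 0.38, and Krtdap was measured on 3 RG@M-γ-CD and 2 PBS arrays. Of 11 tested S100 genes, 8 were lower, with a median of -0.13, of -0.04 without RG@M-γ-CD replicate 2 and of -0.34 in the heat map grouping. The neutrophil genes S100a8 and S100a9 differed by -2.52 and -1.75 (-2.77 and -2.36 in that grouping), and S100a4 and S100a1 by 0.19 and 0.09. No gene of these lists was at an unadjusted p below 0.05 by the labels.

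Of 29 tested genes known to induce or regulate Sprr genes, 18 were lower with RG@M-γ-CD and 11 higher, with a median of -0.10. Oncostatin M and its receptor were among those that were lower. Osm, a cytokine of the interleukin-6 group, read -0.91, -2.08 and -2.32 with RG@M-γ-CD and -0.09, -0.82 and -0.67 with PBS. Its receptor Osmr read 0.76, 0.84 and 0.84 with RG@M-γ-CD and 1.35, 1.08 and 1.34 with PBS. Neither gene overlapped between the labelled groups, and the differences were -1.24 for Osm and -0.44 for Osmr. Both overlapped in the heat map grouping, with differences of -0.70 and -0.05. Both lay below an unadjusted p of 0.05 in limma, and neither passed adjustment. Elsewhere on this list, the AP-1 gene Fosb and the cytokine gene Il6 differed by 1.24 and 0.88, with Il1b at -0.97. Il6 differed by -0.72 and Fosb by 1.87 in the heat map grouping. The list's median was -0.13 in that grouping. It was 0.06 with slide row as a block, which leaves PBS replicate 1 as the only PBS array in the contrast. The part of these genes in the Sprr values was not tested.

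Of 19 squamous markers tested, 15 were lower with RG@M-γ-CD, with a median of -0.32, and 2 had groups that did not overlap, the wound keratins Krt6a and Krt16. Some of the 19 were tested because 1 group alone measured them throughout, and the counts include these. Over the markers measured on all 6 arrays the median was -0.27. The median was -0.05 when RG@M-γ-CD replicate 2 was left out and -0.36 in the heat map grouping. Krt6a read 0.47, 0.28 and 0.18 with RG@M-γ-CD and 1.21, 1.18 and 0.74 with PBS, a difference of -0.73, and lay below an unadjusted p of 0.05 in limma. Krt6a and Krt16 overlapped in the heat map grouping, with differences of -0.24 and -0.45. The brightest markers, Anxa8, Serpinb5 and Ly6d, differed by -0.32, -0.15 and -0.95. Lypd3 was measured on 2 RG@M-γ-CD and 3 PBS arrays, and Pitx1 and Krt15 differed by 0.53 and 0.33. The list mean ran from -0.09 to 0.68 on the RG@M-γ-CD arrays and from 0.62 to 0.73 on the PBS arrays. The basal keratin Krt5 was measured on 2 RG@M-γ-CD arrays and no PBS array, and the basal markers Krt14, Krt15 and Trp63 were measured on all 6. The part of squamous cells in the Sprr values was not tested.

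Of 21 tested genes of repairing colon epithelium, 15 were lower, with a median of -0.42. Itga2, an integrin subunit that binds collagen, differed by -0.64 and the secreted matrix protein Ccn1 by 1.29, both below an unadjusted p of 0.05 in limma. Plaur differed by -0.96 and Hbegf by 0.44. Itga2 and Ccn1 overlapped in the heat map grouping, with differences of -0.53 and 0.70. This list's median was -0.07 when the array lowest for Sprr1a, RG@M-γ-CD replicate 2, was left out, and -0.59 in the heat map grouping.

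Tissue make-up varied between the arrays as well. The mean of 20 colon epithelium markers was lowest on RG@M-γ-CD replicate 1, the array with low Sprr2b, at 4.41, and lay between 4.81 and 5.54 on the others. The median difference over these markers was -0.07 by the labels and -0.12 in the heat map grouping. Their brightest genes, Muc2, Krt8 and Lgals4, differed by -0.34, -0.08 and -0.07, and Car4, Lgr5, Car1 and Cdx1 by -0.80, -0.70, 0.33 and 0.22. The absorptive gene Slc26a3 read -2.36 on that array and between 0.88 and 3.09 on the others. Smooth muscle markers had a mean of 2.64 on RG@M-γ-CD replicate 1, of 5.27 and 5.59 on RG@M-γ-CD replicates 2 and 3, and between 3.37 and 3.68 on the PBS arrays. All 9 tested smooth muscle genes had higher means with RG@M-γ-CD, with Myh11 and Synm at 1.05 and 1.04 and the brightest, Tagln, Cnn1 and Acta2, at 0.79, 0.78 and 0.85. None of them was below an unadjusted p of 0.05 in limma by the labels, as 419 of all 19090 genes were. All 10 tested in the heat map grouping were, as were 3193 of all 19298 genes there. None passed adjustment. The median was 0.95 by the labels, 0.38 without RG@M-γ-CD replicate 3, 1.76 without RG@M-γ-CD replicate 1 and 1.62 in the heat map grouping. Immune cell markers had a mean of 2.03 on RG@M-γ-CD replicate 1, of 0.91 and 1.09 on replicates 2 and 3, and between 1.85 and 2.32 on the PBS arrays. Of the 11 tested, 10 were lower, with a median of -0.53 and of -0.52 in the heat map grouping, and the bright genes Csf3r and Csf1r differed by 0.06 and -0.64. In each of these lists RG@M-γ-CD replicate 1 lay apart from replicates 2 and 3. The part of these markers in the Sprr values was not tested.

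For the 2 remaining lists, the genes tested differ between the groupings. A gene was tested if all arrays of either side measured it. Only 5 posterior Hox genes and 4 liver and gland genes were measured on all 6 arrays. The genes added in the heat map grouping thus entered through 1 side, and nothing is read from the gap between the medians. Posterior Hox genes had a median of 0.19 over 5 genes tested by the labels, with Hoxd8 and Hoxd13 at 0.94 and 0.47 and Hoxa11 and Hoxa13 at -0.21 and -0.06, and of 3.71 over 9 genes tested in the heat map grouping. By the labels, leaving out RG@M-γ-CD replicate 1 gave a median of 1.91, and leaving out either PBS replicate 3 or RG@M-γ-CD replicate 2 gave -0.13. For 6 of these 9 genes all of arrays 6, 7 and 8 lay above arrays 5, 10 and 11. Of all genes, 25.5% did not overlap when both directions were counted, so the share in this direction alone is smaller and is not given. Liver and gland proteins had a median of 0.03 over 4 genes tested by the labels (-1.04 without PBS replicate 1 and 0.37 without RG@M-γ-CD replicate 2), with Ttr at 0.67, Mup3 at 0.03 and Alb at -0.46, and of -1.71 over 8 genes in the heat map grouping. In the heat map grouping the groups overlapped in all 3 Sprr members tested.

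**Figure D4:**
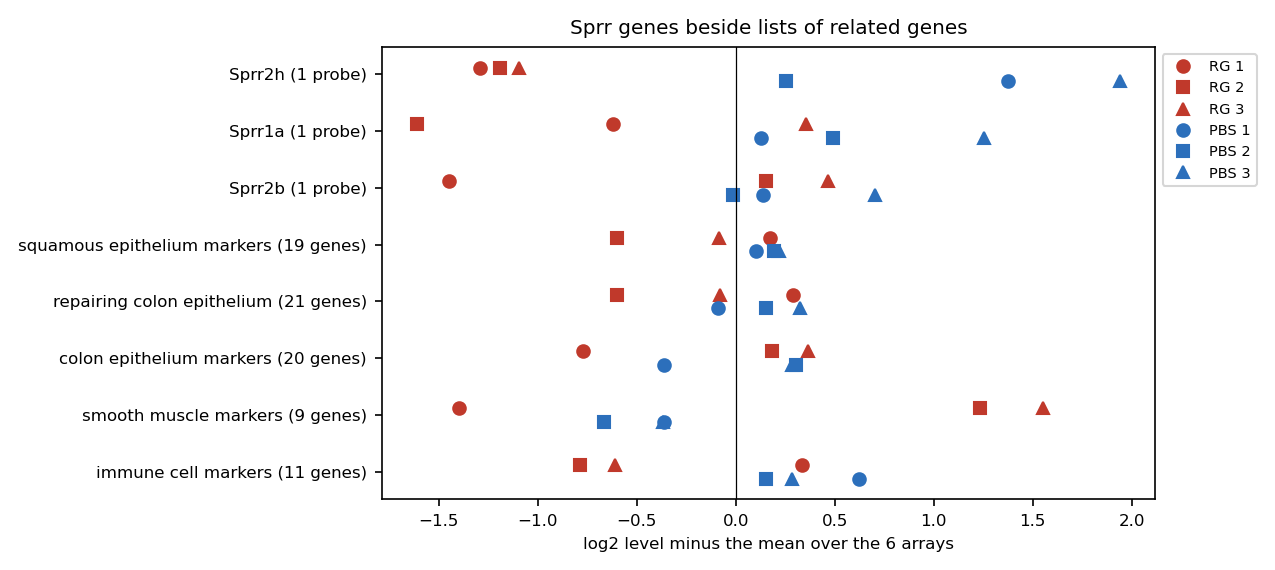
Level of 3 Sprr genes and mean level of 5 lists of related genes on each array, minus the mean over the 6 arrays (x axis, log2). Red is RG@M-γ-CD and blue is PBS, with 1 symbol per replicate. In the smooth muscle, immune and colon epithelium lists, RG@M-γ-CD replicate 1 lies on the other side of 0 from replicates 2 and 3. The RG@M-γ-CD arrays sit together for Sprr2h. The part of the lists in the Sprr values was not tested.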

How the data were processed

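Total RNA of tumor-bearing colon was labelled with Cy3 and hybridized to Agilent mouse arrays, 1 per mouse. The deposited intensity files hold spot signals that the authors extracted with Feature Extraction 10.7.1.1, corrected for background and not normalized between arrays. The deposited table of log2 values shares 1 distribution over its columns, as quantile normalization gives, and was used as an alternative. Control spots (3671 of 62976) and 790 outlier spots were left out, none of them of an Sprr probe. Replicate spots were averaged as log2 values, and each array was centred on the 75th percentile of its gene probes. Symbols came through accessions for 58.3% of probes. Genes were fitted with limma 3.58.1 in R 4.3.3 on the brightest probe that was well above background throughout either group, with Benjamini-Hochberg adjustment at 0.05. The script was tested on simulated data. Depth is signal over background, and the number of arrays limits the precision. Replicates are separate mice.

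Members and lists were chosen with earlier results of these data known. Named are all members and other Sprr genes, from each list those with an unadjusted p under 0.05 and the extremes (2 rises and 2 falls), the brightest markers, and the 10 genes most like the members. One list gene that the rule names is not reported here. Alternatives were quantile normalization, normexp background with an offset of 50, the authors' table, dim probes unfiltered or required on all 6 arrays, probe means, outliers kept, replicate or slide row as a block, row 1 alone, the methods' t-test, the heat map grouping, leaving out each array, and, added after seeing the data, leaving out RG@M-γ-CD replicate 1 and PBS replicate 1 together. Promoters came from RefSeq, and protein sequences were not analysed here.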

Additional observations from a re-analysis of the deposited data

How the results depend on the processing

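Sprr2h kept its direction and its separation of the labelled groups in the alternatives that changed its values. These were quantile normalization, normexp, the authors' table, probe means and outliers kept, with differences from -2.39 (quantile normalization) to -1.83 (normexp). The other alternatives that kept the labels used the same values or fewer arrays, so they could not undo the separation. Slide row as a block and row 1 alone both gave -2.57, with PBS replicate 1 as the only PBS array in the contrast. With 1 array left out the difference lay between -2.85 and -2.01. Sprr1a ranged from -1.27 to -0.75 over all alternatives and from -1.74 to -0.75 with 1 array left out, and Sprr2b from -0.92 to 0.036 with 1 array left out. In the heat map grouping, which was drawn from these same arrays, 5 genes passed the adjusted threshold. The median of the 3 tested members was -0.60 there, and 0 of them had groups that did not overlap. With 1 array left out, the genes past the threshold ranged from 0 to 202 (202 when RG@M-γ-CD replicate 1 was left out), the median of the members from -1.74 to -0.76, and the members whose groups did not overlap from 1 to 2 (2 when either PBS replicate 1 or RG@M-γ-CD replicate 3 was left out). Leaving arrays out cannot undo a separation, so the count of members that did not overlap could only stay or rise. Without RG@M-γ-CD replicate 1 and PBS replicate 1 together, chosen after seeing the data, Sprr2h differed by -2.24, 2 members did not overlap and 0 genes passed. The cause was not tested. The median over the comparison Sprr genes turned from -0.50 to 0.27 in the heat map grouping. The deviations of same-numbered arrays from their group means had correlations of -0.25, -0.233 and 0.136. With 3 arrays in each group such deviations depend on each other. They cannot show whether the replicate numbers paired mice. The fit with the replicate number as a block left all member differences as they were, with 0 genes past the threshold and 464 against 419 at an unadjusted p below 0.05. Slide row as a block changed the share of genes with a lower mean from 52.8% to 36.5%, where the contrast is with PBS replicate 1 alone. No difference is given for the 4 members not well above background on any array, or for Sprr2d, Sprr2g and Sprr3, which were measured on some.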
